A study of Schizothorax plagiostomus with 18 samples.

Results

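Testes of the snow trout Schizothorax plagiostomus, a seasonally breeding fish of Himalayan rivers, were compared at spawning and before spawning. The comparison takes 6 of the 18 RNA sequencing libraries of the series, chosen by their labelled sex and maturational stage: 3 from testes at spawning and 3 from testes before spawning. The labels assign libraries 1, 2 and 3 of each group to seasons 1, 2 and 3, given there as the batch, and they give no age, strain or treatment. Whether each replicate was a different fish, or a pool, is not stated. A p-value therefore speaks only to the scatter among the libraries in its fit, some of which may be technical. The other 12 libraries, 3 of post-spawning testes and 9 of ovaries, enter only where named.

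In fishes that breed once a season, the testis is organised in cysts, in which Sertoli cells enclose germ cells that develop in step. Before spawning the cysts hold spermatogonia, meiotic spermatocytes and spermatids. Towards spawning, spermatids complete their change into sperm, and pituitary gonadotropins act through the steroids of the Leydig cells to bring about release of sperm into the duct. Because whole testes were sequenced, fewer cells of a type and less RNA per cell cannot be told apart. The measured features are transcripts or clusters of transcripts that the files identify by number only. No gene names or testis markers could therefore be attached to them, and they are described by level, library, gonad and relation to each other.

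The 6 libraries held between 24682616 and 47000987 counts. The 10 most abundant features of each library took 8%, 19.2% and 11.3% of counts in spawning testes 1, 2 and 3, against 7.43%, 6.29% and 7.4% in pre-spawning testes 1, 2 and 3. Every spawning library was above every pre-spawning library (12.8% ± 5.76 against 7.04% ± 0.652, SD over n = 3 each; exact permutation p = 0.1, two-sided, the smallest that 3 against 3 can give). For the 100 most abundant features the shares were 29% ± 6 and 21.9% ± 2.77 and the groups overlapped (exact permutation p = 0.2, n = 3 each). At an equal depth of 24682616 counts, 67499, 68747 and 70664 features were detected in spawning testes, against 79945, 69551 and 69102 in pre-spawning testes. Pre-spawning testis 1 was the highest, and the other pre-spawning testes lay within the spawning range (exact permutation p = 0.4, n = 3 each). With at least 5 counts required, the groups did not overlap, at 45958, 44571 and 47757 features in spawning testes, against 52992, 49345 and 50082 in pre-spawning testes (exact permutation p = 0.1, n = 3 each). The scaling factors that TMM (trimmed mean of M-values) assigned to the libraries also separated the stages, at 0.961, 0.725 and 0.964 in spawning testes against 1.43, 1.28 and 1.23 in pre-spawning testes. Levels below are counts per 1000000 (CPM) after this scaling within the 9 testis libraries, unless stated.

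The library labelled pre-spawning testis 1 was about as close to the spawning testes as to the other pre-spawning testes. Whether its stage label is right cannot be told from the files, so it was kept in its labelled group and values without it are given beside the others. Its Spearman correlation over 51080 features, which are not independent replicates, was 0.893 with spawning testis 1, 0.852 with spawning testis 2 and 0.868 with spawning testis 3, against 0.881 and 0.831 with pre-spawning testes 2 and 3. Pre-spawning testes 2 and 3 resembled each other most closely, at 0.919, and their correlations with the spawning testes ran from 0.763 to 0.818. The closest library to spawning testis 1 among the other libraries of the comparison was pre-spawning testis 1, from the same season.

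**Figure D1:**
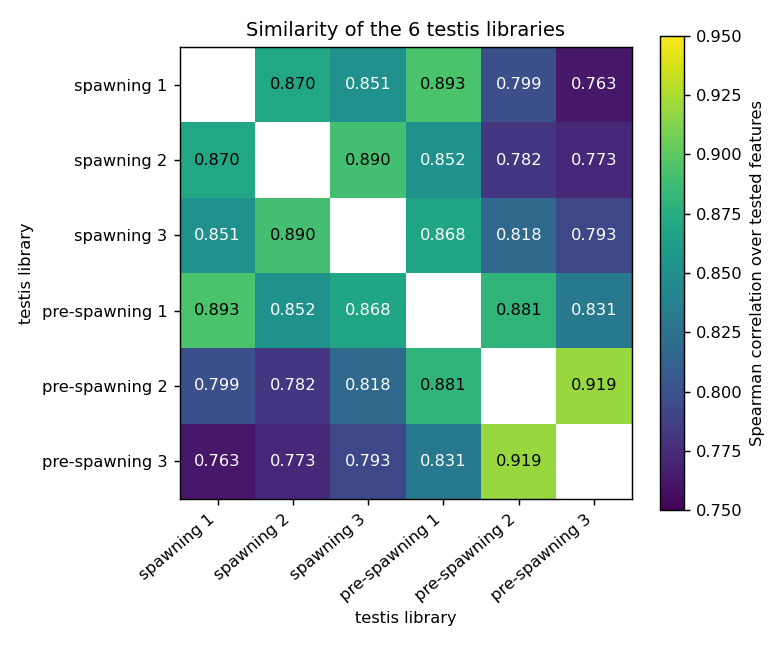
Spearman correlation across 51080 features between each pair of the 6 testis libraries, with the spawning testes first on both axes and the diagonal left blank. Pre-spawning testis 1 is as close to the spawning testes (0.852 to 0.893) as to the other pre-spawning testes (0.831 and 0.881).

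At spawning, 937 features were higher and 1128 lower than before spawning, among 51080 tested on the 9 testis libraries (edgeR quasi-likelihood test, Benjamini-Hochberg adjusted p under 0.05). These 2065 features are 4.04% of those tested, 1.83% higher and 2.21% lower. The 3 post-spawning testes are outside the contrast but share in the estimate of spread. They resembled each other more closely (Spearman correlations 0.956 to 0.972) than did the libraries within either compared stage (0.831 to 0.919). The estimated coefficient of variation between replicates was 57.1% with them and 64.4% in a fit on the 6 compared libraries alone. The median of the absolute log2 fold changes was similar in both directions, at 2.73 for the features that rose and 2.58 for those that fell. The largest rises went further, with a 90th percentile of 6.15 for rises against 4.45 for falls. At least 4-fold changes were found in 648 features that rose and 866 that fell, and at least 16-fold changes in 272 and 159. The features that rose were the more abundant: their median level was 18.6 CPM in spawning testes, and 145 of them averaged at least 100 CPM there. For the features that fell, the median was 5.18 CPM in pre-spawning testes and 21 averaged at least 100 CPM. Counts by size of change and by level were not made over all features tested. Of the 937 features that rose, 927 had every spawning library above every pre-spawning library, and all 1128 that fell were fully separated the other way. Over all features tested, 5675 (11.1%) were separated upwards and 7854 (15.4%) downwards. The features were called on these same libraries, so their separation is no separate result.

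Without pre-spawning testis 1 the same test called 7909 of 53659 features (14.7%), with 3810 higher (7.1%) and 4099 lower (7.64%). On these lists the median absolute log2 fold change was 3.01 for rises and 2.53 for falls. The gap in level was smaller, with a median of 10.2 CPM in spawning testes for rises. For falls it was 5.47 CPM in pre-spawning testes 2 and 3. The calls made with all libraries were nearly a subset: 912 of the 937 features that rose (97.3%, and 23.9% of the 3810) and 1119 of the 1128 that fell (99.2%, and 27.3% of the 4099) were called in both, and no feature was called in opposite directions. The fits share every library but pre-spawning testis 1, so this overlap is no separate result. The number of calls rested on single libraries in other ways too. It was 0 without pre-spawning testis 2 or 3 (10830 and 12091 features before adjustment, at p under 0.05), 3440 when spawning testis 1 was left out, 34 without spawning testis 2 and 462 without spawning testis 3. It was also 0 when edgeR was fitted to the 6 compared libraries alone (9805 at an unadjusted p under 0.05), whereas DESeq2 called 4512 on those 6, among them 888 of the 937 higher and 1089 of the 1128 lower features. Blocking on season left 0 calls in edgeR (13557 before adjustment at p under 0.05), and none of the features named below then passed, with adjusted p between 0.0615 and 0.113. With the block and without pre-spawning testis 1 it called 2422, and DESeq2 called 9744 with all 9 libraries. RLE scaling turned the majority, with 1169 higher and 916 lower, and plain library totals gave 762 higher and 6051 lower, with a median over all features of -0.54 on the log2 scale in place of 0.03.

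The intermediate place of pre-spawning testis 1 was measured on features chosen without it. For each library in turn, the 500 features in each direction with the smallest p in a fit without that library were taken, and the library was placed on a scale with the pre-spawning mean at 0 and the spawning mean at 1, on log2(CPM + 0.5). Pre-spawning testis 1 lay at a median of 0.85 for features that were higher at spawning and 0.66 for those that were lower. On both lists it was nearer the spawning mean than the pre-spawning mean. Each library was placed on its own lists and between means that left it out, so positions of different libraries are not on a common scale. Pre-spawning testis 2 lay at 0.01 and 0.07 and pre-spawning testis 3 at 0.07 and 0.22. Spawning testis 2 lay at 1.17 and 0.89 and spawning testis 3 at 0.74 and 0.66, close to the spawning mean or somewhat short of it. Spawning testis 1 was the second unusual library, since it reached only 0.38 on the features that were higher but 0.84 on those that were lower. In a limma fit that weights libraries by their fit to the group means, spawning testis 1 (0.259) and pre-spawning testis 1 (0.318) had the lowest weights of the 9 testes. With CPM from library totals in place of TMM, pre-spawning testis 1 lay at 1.04 and 0.53. Both libraries come from season 1.

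**Figure D2:**
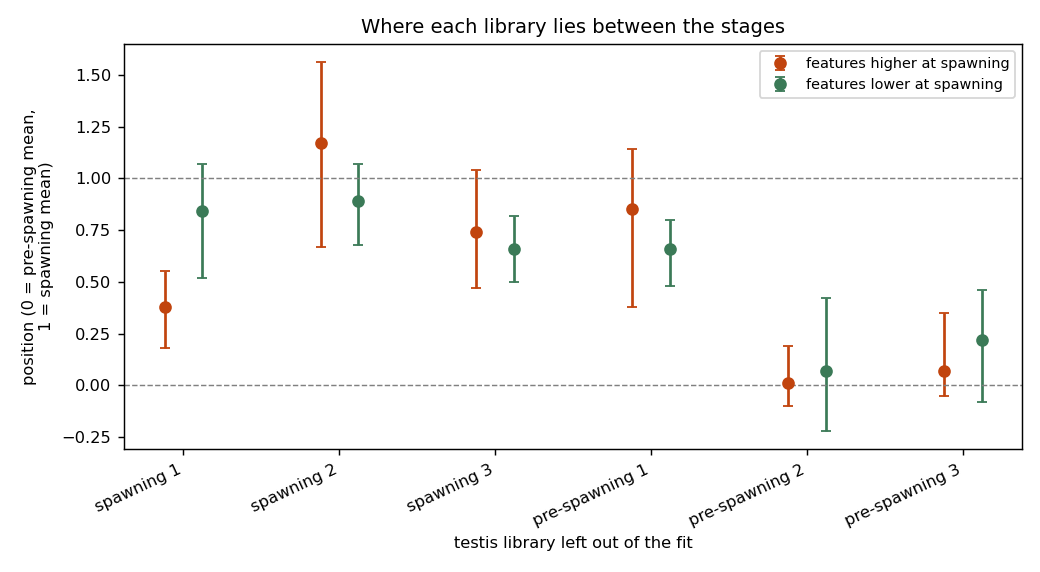
Position of each testis library (x axis) between the pre-spawning mean (0) and the spawning mean (1), on 500 features per direction chosen in a fit without that library. Points are medians over features and bars run from the lower to the upper quartile, with features that were higher at spawning in orange and those that were lower in green; pre-spawning testis 1 lies at 0.85 and 0.66, apart from pre-spawning testes 2 and 3.

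The longer lists called without pre-spawning testis 1 contain the 500 features per direction on which that library was placed. They come from the same fit and are no separate result. In pre-spawning testis 1 itself, 1810 of the 3810 features that rose (47.5%) were at or above the lowest spawning testis. In 1490 its level lay between the stages, and in 511 it was no higher than in pre-spawning testis 2 or 3. Of the 4099 features that fell, 952 (23.2%) were at or below the highest spawning testis, 2535 lay between and 625 were at the level of the other pre-spawning testes. A few features meet more than 1 of these conditions. The same shares were not counted over all features tested, so nothing is read from their size. Within seasons, the median log2 difference between spawning and pre-spawning testis over the 3810 features was 0.59 in season 1, 1.83 in season 2 and 1.58 in season 3. Over the 4099 features it was -0.75, -1.73 and -1.61. Both lists were called with the libraries of seasons 2 and 3 but without pre-spawning testis 1, so the choice favours larger differences in those seasons. In the lists called with all 9 testes, the medians for seasons 1, 2 and 3 were 1.28, 2.38 and 1.95 for the 937 features that rose. For the 1128 that fell they were -1.39, -2.04 and -1.73. Across all 51080 features, the stage difference of season 2 correlated with that of season 3 at r = 0.49, and the stage difference of season 1 with those of seasons 2 and 3 at 0.37 and 0.15.

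The features with the smallest p among those that rose were low in every pre-spawning testis, the first included, and moderately abundant at spawning. The naming rule required every spawning testis above every pre-spawning testis. That pre-spawning testis 1 lay below the spawning testes is therefore no separate result. The leading feature, cluster17726, made of 3 transcripts, had 36.8, 51.3 and 20.2 CPM in spawning testes 1, 2 and 3, against 2.74, 1.48 and 1.93 CPM in pre-spawning testes 1, 2 and 3. Its log2 fold change was 4.13 (SE 0.43, edgeR adjusted p = 0.0259), and no ovary library exceeded 0.131 CPM of its total. The feature cluster27788 had 41.7, 93.8 and 60.7 CPM in spawning testes, against 4.27, 5.42 and 5.79 CPM in pre-spawning testes (log2 fold change 3.66, SE 0.38). In cluster65876 the levels were 11, 33.8 and 33.1 CPM against 1.27, 0.573 and 0.798 CPM, and spawning testis 1 was the lowest of its group (log2 fold change 4.87, SE 0.56). The same order held in cluster4938, at 15.4, 55.3 and 16.2 CPM in spawning testes, against 0.628, 0.964 and 0.965 CPM in pre-spawning testes (log2 fold change 5.09, SE 0.59), where spawning testis 2 stood above the others. The smallest of these changes was that of cluster18914, at 23.5 ± 5.49 CPM in spawning testes and 3.09 ± 0.752 CPM in pre-spawning testes (SD, n = 3 each; log2 fold change 2.93, SE 0.33).

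A pair of these features, cluster64658 and cluster47514, are single transcripts with a common stem, the part of the transcript identifier before its final number. They moved together. The first had 21, 29.3 and 10.4 CPM in spawning testes, against 1.24, 1.61 and 1.53 CPM in pre-spawning testes (log2 fold change 3.79, SE 0.41). The second had 52.9, 72.2 and 19 CPM against 1.92, 2.21 and 2.1 CPM (log2 fold change 4.53, SE 0.5). Both were higher still in post-spawning testes, at 60.2 to 82.2 and 127 to 186 CPM. How reads were divided between transcripts of a stem is not given in the sources used here, so the separate levels are uncertain.

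By contrast, cluster31811 was high at spawning among the 3 testis stages. It had 23.7, 56.9 and 55.8 CPM in spawning testes, against 2.09, 3.05 and 2.3 CPM in pre-spawning testes and rose by 4.2 on the log2 scale (SE 0.45, edgeR adjusted p = 0.0259). In post-spawning testes it had 1.31 to 2.27 CPM, at or under the pre-spawning level. Ovaries carried it throughout, at 10.1 to 38.7 CPM of library totals, and the stage change in testes exceeded that in ovaries by 4.44 on the log2 scale (SE 0.66, edgeR adjusted p = 0.0309 over 53536 features in a fit of all 18 libraries). That test of a difference between gonads was passed by 8 features (0.0149%), 6 with the more positive change in testes (0.0112%) and 2 with the more negative (0.00374%).

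**Figure D3:**
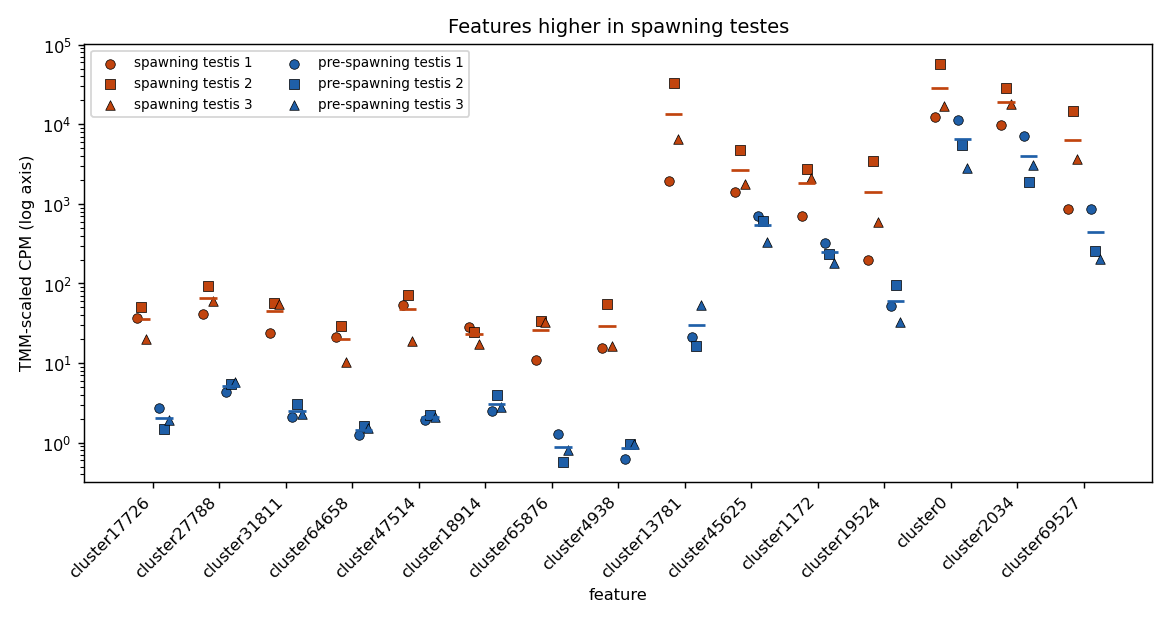
TMM-scaled CPM (log axis) of the features named as higher in spawning testes, with spawning testes in orange on the left and pre-spawning testes in blue on the right of each feature; symbols mark replicates 1, 2 and 3, and bars are group means. The last 3 features, from cluster0 on, were called by edgeR without pre-spawning testis 1 and not with all 9 testes; its circle lies near or above that of spawning testis 1 there.

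Among the features called with all 9 testes, the largest increases in level came from a few abundant ones, and spawning testis 2 was the highest of the 6 libraries in each. The feature cluster13781, of 3 transcripts, had 1913, 32608 and 6510 CPM in spawning testes, against 21.3, 16.2 and 53.2 CPM in pre-spawning testes. Its log2 fold change was 8.82 (SE 1.2, edgeR adjusted p = 0.0285), and the spawning testes differed widely among themselves, with testis 1 lowest. It was nearly limited to testes, since ovaries had 0.0733 to 7.95 CPM of library totals, and post-spawning testes still had 1319 to 1786 CPM. In cluster1172, with 15 transcripts, the levels were 712, 2717 and 2091 CPM against 321, 236 and 183 CPM (log2 fold change 2.9, SE 0.5, adjusted p by edgeR 0.0387). Those of cluster45625 were 1431, 4691 and 1786 CPM against 699, 618 and 333 CPM (log2 fold change 2.26, SE 0.53). In cluster19524 they were 196, 3507 and 587 CPM against 51.9, 96.7 and 32.9 CPM (log2 fold change 4.56, SE 0.99). These 4 features were all testis-predominant, and in post-spawning testes cluster45625, cluster1172 and cluster19524 stayed above every pre-spawning testis, at 3363 to 5782, 1975 to 2186 and 968 to 1653 CPM. Within season 1 the log2 differences of cluster45625 and cluster1172 were 1.03 and 1.15. In season 2 they were 2.92 and 3.52, and in season 3 they were 2.42 and 3.51. Both cluster45625 and cluster19524 passed edgeR narrowly, with adjusted p of 0.0483 and 0.0436. When spawning testis 2 was left out, cluster45625, cluster1172 and cluster19524 did not pass (adjusted p by edgeR 0.119, 0.0882 and 0.101). Nor did they when spawning testis 3 was left out (0.0594, 0.0527 and 0.0544). In both of these fits cluster13781 still passed (0.0368 and 0.0426).

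Among the most abundant features of the testis were 3 that missed the threshold in the edgeR fit of all 9 testes and passed in the same fit without pre-spawning testis 1. All 3 also passed by DESeq2 with every testis kept. The cluster of 230 transcripts, cluster0, had 12192, 57478 and 16936 CPM in spawning testes, against 11448, 5425 and 2840 CPM in pre-spawning testes. Its log2 fold change was 2.85 without pre-spawning testis 1 (SE 0.77, edgeR adjusted p = 0.0417) and 2.14 with it (adjusted p = 0.0901). The feature cluster2034 had 9738, 28884 and 17882 CPM against 7037, 1863 and 3084 CPM (log2 fold change 2.95 without pre-spawning testis 1, edgeR adjusted p = 0.0225, and 2.24 with it, edgeR adjusted p = 0.0586). In cluster69527 the levels were 857, 14503 and 3714 CPM against 859, 258 and 205 CPM. Its season 1 libraries had nearly the same level, whereas the log2 differences in seasons 2 and 3 were 5.81 and 4.18 (edgeR adjusted p = 0.0282 without pre-spawning testis 1 and 0.0536 with it). In all 3 features pre-spawning testis 1 was the highest pre-spawning library and spawning testis 1 the lowest spawning library. Choosing features that passed only without pre-spawning testis 1 favours those in which it is high, so its place here is no separate result.

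Features that fell were led by cluster1336, of 14 transcripts, with 2.56, 6.53 and 3 CPM in spawning testes, against 44.7, 62.2 and 35.8 CPM in pre-spawning testes (log2 fold change -3.56, SE 0.45, adjusted p by edgeR 0.0259). Pre-spawning testis 1 lay with the other pre-spawning testes here, above every spawning testis as the naming rule required. In cluster5613 the levels were tight within each stage, at 3.35, 3.76 and 3.93 CPM against 14.3, 22.2 and 21.4 CPM (log2 fold change -2.39, SE 0.3). The feature cluster23554 had 4.16, 7.04 and 5.64 CPM against 23.5, 23.1 and 25.4 CPM (log2 fold change -2.1, SE 0.29). The remaining features of this group, cluster5374, cluster13825, cluster67210, cluster16865 and cluster56471, averaged 1.5 to 3.84 CPM in spawning testes and 10.8 to 18.3 CPM in pre-spawning testes. Their log2 fold changes ran from -3.06 to -2.1. After spawning cluster67210 was back within the pre-spawning range, with 9.84 to 13.1 CPM in post-spawning testes, and ovaries had more of it than any testis (34.2 to 76.7 CPM of library totals). In cluster1336 post-spawning testes had 1.57 to 2.6 CPM, near or under the lowest spawning testis.

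The abundant features that fell included a feature predominant in testes. This was cluster3095, of 9 transcripts, with 88.6, 351 and 594 CPM in spawning testes, against 2792, 3049 and 2264 CPM in pre-spawning testes (log2 fold change -2.97, SE 0.59, adjusted p by edgeR 0.0406). Post-spawning testes had 741 to 847 CPM, above every spawning testis and under every pre-spawning testis, and ovaries had at most 35.9 CPM of library totals. In cluster26665 the levels were 125, 156 and 106 CPM against 195, 1872 and 1070 CPM (log2 fold change -3.02, SE 0.66). There pre-spawning testis 1 stood close to the spawning testes, and the season 1 log2 difference was -0.64, against -3.58 and -3.34 in seasons 2 and 3.

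A further 3 abundant features that were lower at spawning, cluster33560, cluster31792 and cluster62229, are single transcripts that share a stem and followed each other closely. The first had 208, 612 and 674 CPM in spawning testes, against 1763, 3243 and 2250 CPM in pre-spawning testes (log2 fold change -2.28, SE 0.47, adjusted p by edgeR 0.0411). The second had 177, 510 and 614 CPM against 1301, 2348 and 1963 CPM (log2 fold change -2.11, SE 0.47). The third had 248, 781 and 626 CPM against 1563, 2430 and 1645 CPM and was called by edgeR without pre-spawning testis 1 (log2 fold change -1.85, edgeR adjusted p = 0.0382) and not with all 9 testes (-1.77, edgeR adjusted p = 0.0521). Spawning testis 1 was the lowest library in all 3, and post-spawning testes stayed low, at 484 to 796 CPM. Also called by edgeR without pre-spawning testis 1, and not with all 9 testes, were cluster4139 and cluster19015. The first had 45.5, 110 and 454 CPM against 619, 2227 and 900 CPM, and the second 76.7, 151 and 378 CPM against 322, 1594 and 598 CPM. Their log2 fold changes without pre-spawning testis 1 were -2.9 and -2.4 (edgeR adjusted p = 0.0481 and 0.041). Spawning testis 1 was again the lowest of the 6 libraries in each. With every testis kept, cluster62229, cluster4139 and cluster19015 also passed by DESeq2 and with library totals. In cluster19015 the groups overlap when pre-spawning testis 1 is included, and in cluster4139 and cluster19015 spawning testis 3 was the least reduced.

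**Figure D4:**
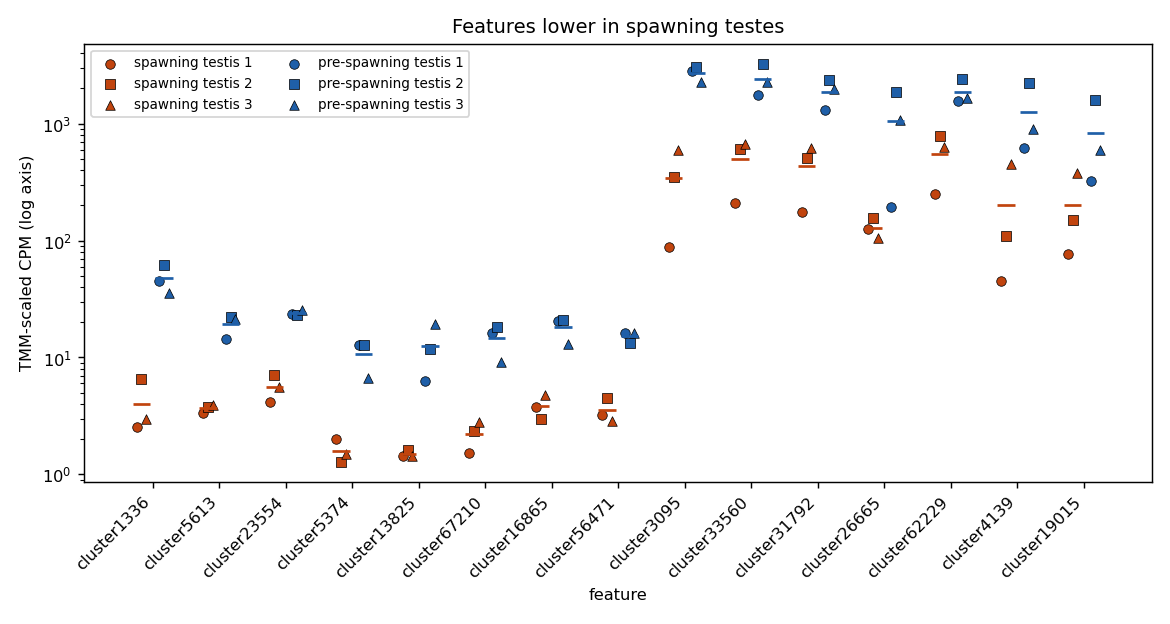
TMM-scaled CPM (log axis) of the features named as lower in spawning testes, drawn as for the features that were higher, with spawning testes in orange left of pre-spawning testes in blue. The last 3 features, from cluster62229 on, were called by edgeR without pre-spawning testis 1 and not with all 9 testes, and in cluster26665 its level of 195 CPM lies next to the spawning testes (106 to 156 CPM).

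Features that set the post-spawning testis apart from the ovary had a positive log2 fold change at spawning in 84.1% of cases, against 50.9% of all features tested. Most of them did not pass the test. To keep the 6 compared libraries out of the choice, classes were set from the 3 post-spawning testes and the 9 ovaries: testis-predominant features had at least 1 CPM of library totals in post-spawning testes and at least 16 times the ovary mean. Among the 1801 of these that could be tested, 240 were called higher (13.3%) and 12 lower (0.666%), with a median log2 fold change of 1.53, against 0.03 over all features, of which 1.83% rose and 2.21% fell. Of 1698 ovary-predominant features, 8 were higher (0.471%) and 42 lower (2.47%, near the share over all features), with a median of -0.73. Of 32842 shared features 564 rose (1.72%) and 775 fell (2.36%). Without pre-spawning testis 1, 803 of 1802 testis-predominant features rose (44.6%) and 27 fell (1.5%), against 7.1% and 7.64% of all features, and the median was 2.55, against 0.14 over all features. The directions of the medians for the testis- and ovary-predominant classes were the same with RLE scaling (1.63 and -0.65) and with library totals (0.92 and -1.29). Testis-predominant features took 9.83%, 10.8% and 6.46% of counts in spawning testes 1, 2 and 3, against 3.98%, 2.4% and 6.25% in pre-spawning testes. The groups did not overlap, but spawning testis 3 and pre-spawning testis 3 nearly met. A feature that is lost by the post-spawning stage cannot enter the testis-predominant class, so falls among testis features are undercounted by construction. The post-spawning testes that set the classes correlated with the spawning testes at 0.863 to 0.9. With pre-spawning testes 2 and 3 they correlated at 0.751 to 0.837, and with pre-spawning testis 1 at 0.874 to 0.886 (Spearman). The choice therefore favours features that rose and stayed high as testis-predominant, and features that fell and stayed low as ovary-predominant. How much of the shares and medians this choice accounts for was not tested.

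**Figure D5:**
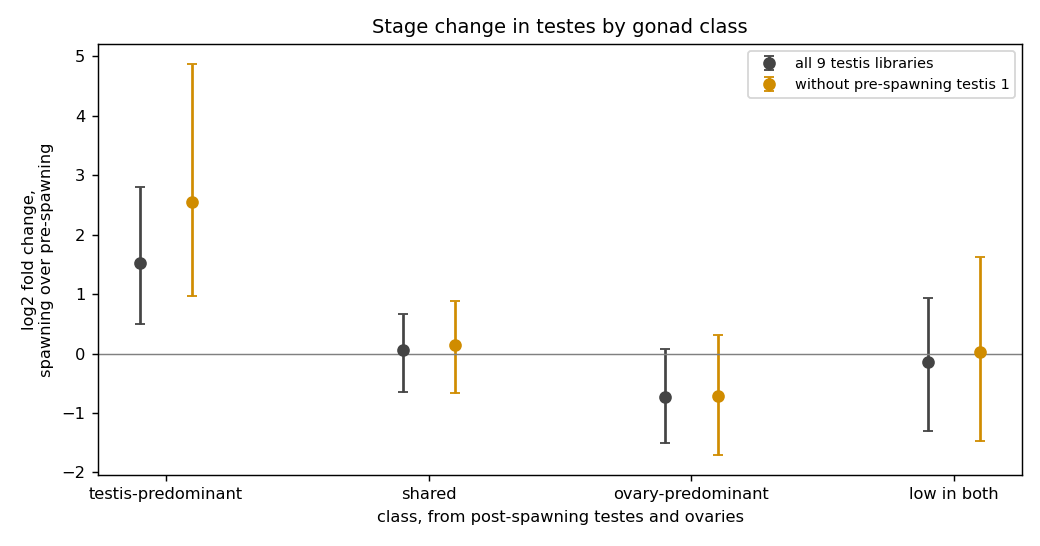
Log2 fold change in testes, spawning over pre-spawning (y axis), for features classed by their level in post-spawning testes and ovaries (x axis). Points are medians and bars run from the lower to the upper quartile over features, for all 9 testis libraries (grey) and without pre-spawning testis 1 (orange); testis-predominant features have medians of 1.53 and 2.55, ovary-predominant features -0.73 and -0.72.

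Post-spawning testes lie outside the contrast, although they share in its estimate of spread. A contrast of them with either stage shares that stage's libraries, so only their levels are set beside the others. Some features that rose were still as high after spawning: cluster17726 had 23.3 to 30 CPM and cluster27788 45.8 to 72.6 CPM in post-spawning testes, within the range of the spawning testes. The large cluster0 had 56485 to 93102 CPM there, near or above the highest spawning testis. Of the 937 features that rose, 228 (24.3%) had every post-spawning testis below every spawning testis, as did 12.5% of all features. In 65 of them (6.94%) every one was above, as in 13.2% of all features. Of the 1128 features that fell, 598 (53%) had every post-spawning testis above every spawning testis, as did 13.2% of all features, and 39 (3.46%) had every one below, as did 12.5% of all features. In 851 of the 1128 (75.4%) every post-spawning testis was still below every pre-spawning testis, and in 837 of the 937 (89.3%) every one was still above. The shares over all features tested were not counted for these patterns. All these counts share spawning or pre-spawning libraries with the calls, and nothing is read from them. Among the features that fell, cluster56471 had 6.73 to 8.13 CPM in post-spawning testes, between the spawning and the pre-spawning testes. In cluster26665 they had 33.6 to 36.3 CPM, below every spawning testis.

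The same stages were also compared in ovaries. No feature passed between spawning and pre-spawning ovaries by edgeR (0% of 42501, with 2093 at an unadjusted p under 0.05). For the 651 features that rose in testes and could be tested in ovaries, the median ovary log2 fold change was 0.36, with 64.2% above 0, against -0.01 and 49.4% for the 38829 features tested in both gonads. For 962 features that fell in testes it was -0.05, with 47.2% above 0.

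Calls were also counted by the number of transcripts per feature and among features of the same stem. Single-transcript features rose in 555 and fell in 423 of 24812 cases (2.24% and 1.7%), whereas features of 2 to 9 transcripts rose in 322 and fell in 675 of 23380 (1.38% and 2.89%). Features of 10 or more transcripts rose in 60 and fell in 30 of 2888 (2.08% and 1.04%), so there was no steady trend with transcript number. The shares over all features were 1.83% and 2.21%, and the median log2 fold changes of the 3 size groups were 0.1, -0.1 and 0.28. Among 67737 pairs of tested features that share a stem, both members were called in 324, and 308 of these pairs (95.1%) moved the same way. Only 1 member was called in 3086 pairs, and the signs agreed in 1939 of these (62.8%). Over all pairs of this kind the signs agreed in 59.5%, close to that share. Without pre-spawning testis 1 both members were called in 2200 pairs, of which 1955 moved the same way (88.9%) and 245 opposite ways.

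In 16 pairs the members were called in opposite directions, and the pairs with the smallest p belong to a stem of 92 transcripts that are divided among 75 features. The feature cluster11674 of this stem had 1.69, 0.239 and 0.444 CPM in spawning testes, against 7.67, 24.7 and 12.2 CPM in pre-spawning testes (log2 fold change -4.22, SE 0.78, adjusted p by edgeR 0.0387). Its partners cluster49817 and cluster48308 had 16.3, 12.1 and 44.8 CPM and 6.16, 38.2 and 132 CPM in spawning testes, against 0 counts in each pre-spawning testis. With 3 counts over the pre-spawning group as the floor, they were at least 1116-fold and at least 2669-fold higher at spawning (edgeR adjusted p = 0.0259 and 0.0393). Spawning testis 3 held 2018 of 3127 and 5928 of 7475 counts, and without it the bounds were at least 628-fold and at least 876-fold. Without spawning testis 2 cluster48308 did not pass (edgeR adjusted p = 0.102). They were the only features in the table with at least 1 CPM in each spawning testis and 0 counts in each pre-spawning testis, and 1 feature met the mirrored condition. In post-spawning testes cluster48308 had 0 counts and cluster49817 had 3 counts, all in post-spawning testis 3.

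Detection of many features of this stem differed between libraries of a stage. Of its 75 features, 16 reached 1 CPM in none of the 6 libraries, 14 in 1 of them, 18 in 2, 14 in 3, 5 in 4, 3 in 5 and 5 in all 6. The same was not counted over all features. Among the 16, 6 had at least 1 CPM in each post-spawning testis and 0 counts in the 6 libraries, out of 10 such features in the whole table. The summed level of the stem was 452, 578 and 2001 CPM in spawning testes, against 233, 1201 and 1265 CPM in pre-spawning testes, and the stages overlapped.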

How the data were processed

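RNA of testes and ovaries was sequenced after removal of ribosomal RNA with a kit designed for mammals (human, mouse or rat), per the labels' protocols. The authors deposited a table of estimated counts per feature, all whole numbers, and a text map that assigns 251830 transcripts to 135031 features, which carry no score or unit. The tools named, per the submitters' processing notes, are fastp and Salmon. Which transcriptome was used, and how transcripts were clustered and counts rounded, is not given in the sources used here. All 15 values above 1000000 end in 0. No column was left without a sample (0).

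Computed here: edgeR 4.0.16 quasi-likelihood F-tests (glmQLFit, glmQLFTest, robust=FALSE) in R 4.3.3, with TMM scaling and filterByExpr, on 9 testis libraries and 3 group means, contrast spawning minus pre-spawning, Benjamini-Hochberg threshold 0.05. Estimated counts were already whole and were used as deposited. SE is the log2 fold change divided by the root of F. Alternatives used DESeq2 1.42.0, limma 3.58.1 (voom with sample quality weights), RLE scaling, library totals, other filters, other sets of libraries and a season block. The labels give season as a batch shared by same-numbered libraries, so the numbers pair the libraries. Deviations from the group means correlated at 0.23, -0.07 and 0.03 within seasons 1, 2 and 3. Exact permutation tests used SciPy 1.17.1. Replicates differed beyond sampling noise in every pair (lowest chi-square per degree of freedom 148, over features with at least 20 counts in a pair). In a single library, 3 counts correspond to 0.0638 to 0.122 CPM of library totals, over the 6 libraries. The fold bounds took the floor of 3 counts over the whole pre-spawning group, which is lower in CPM. This floor covers counting error only. The fit was tested on simulated data with known changes, drawn with a smaller spread than these libraries show.

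Features were named by a rule: adjusted p under 0.05, a change of 1 or more on the log2 scale, a mean of 10 CPM or more in one stage and no overlap of libraries. The first 8 per direction by p and the 4 with the largest difference in CPM were taken, with 3 more per direction from the fit without pre-spawning testis 1, and the 2 leading pairs of opposite direction within a stem. The libraries compared, this rule and the alternatives were chosen with earlier results of these data known. Lists of marker genes could not be applied to unnamed features.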

Additional observations from a re-analysis of the deposited data

Results flagged for a closer look

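For cluster31811, the stage change in testes differed from that in ovaries by 4.44 on the log2 scale (edgeR, interaction term, SE 0.66, adjusted p = 0.0309), with a log2 fold change of 4.2 in testes and -0.26 in ovaries. All 3 spawning testes exceeded all 3 pre-spawning testes. Of the 33 features named, it was the only one to pass this test. The other 7 features that passed it were not among those named by the rule. Groups of 3 libraries are too small to test single libraries as outliers.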

How the results depend on the processing

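The number of features called depended strongly on the fit. Against 2065 calls (edgeR, 9 testes), leaving out 1 of the 6 libraries gave 0 to 7909. Fits on all 18 libraries gave 1222, on the 6 libraries 0, with library totals 6813, with no low-count filter 8584 and with DESeq2 9744. With season as a replicate block 0 passed, while the log2 fold changes of the 33 named features moved by at most 0.47. Chosen after seeing the data, a fit on 5 libraries without pre-spawning testis 1 gave 0 (12664 at an unadjusted p under 0.05), DESeq2 without it 14480, RLE scaling without it 7947, and DESeq2 on the 6 libraries 4512. Of 693 values of named features under the alternatives, 442 kept direction and call, 251 kept direction without passing, and 0 reversed. Most of these features were named under a rule that required no overlap between the stages. A reversal was therefore unlikely by construction, and nothing is read from its absence. Without pre-spawning testis 1, 1955 of 2200 stem pairs with both members called moved together (88.9%), in place of 308 of 324 (95.1%). Without that library the testis-predominant median was 2.55 in place of 1.53. With a ratio of 4 it was 0.84. Spawning minus pre-spawning shares of the 100 most abundant features kept their sign without each library, with 3.74 percentage points without spawning testis 2 in place of 7.1. Causes of these shifts were not tested.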

Other observations

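The 8 features whose stage change differed between gonads (edgeR, interaction term over 53536 features) were chosen after their values were seen. Those with the more positive change in testes included cluster28089 and cluster8709. In testes cluster28089 had 128, 392 and 334 CPM at spawning, against 33.2, 24 and 28.3 CPM before spawning, while in ovaries it had 110, 231 and 35 CPM of library totals at spawning, against 293, 485 and 372 CPM before spawning. The levels of cluster8709 went the same opposite ways, with 76.4, 233 and 203 CPM against 16.8, 9.12 and 13.5 CPM in testes, and 65.8, 130 and 19.5 CPM against 173, 285 and 219 CPM in ovaries. Within each gonad cluster28089 and cluster8709 ranked the libraries in the same order, so they are not independent cases. Whether they share a stem is not reported here. In each feature the stages did not overlap in either gonad, but neither passed in ovaries alone (log2 fold changes -1.8 and -1.83, edgeR adjusted p = 0.868 for both). The reverse was seen in cluster12404, with 0.762, 0.567 and 1.07 CPM at spawning against 4.29, 5.76 and 4.42 CPM before spawning in testes, and 16.6, 15.7 and 11.4 CPM against 5.25, 3.97 and 5.8 CPM in ovaries (interaction -4.07 on the log2 scale, SE 0.51, edgeR adjusted p = 0.02).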
